A study of Rattus norvegicus with 12 samples.

Results

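Cytosolic heat shock proteins and their cochaperones were followed as 10 named genes in RNA-seq data from H9c2(2-1) cells, a wild-type rat line derived from embryonic heart. All 10 were found by symbol among the 35966 genes of the deposited table, and all 10 passed the filter on low values (at least 1 TPM in at least 3 libraries), as did 12314 genes in all. There are 12 libraries, with 3 in each of 4 groups. Control cells had DMEM of high glucose with 10% FBS, and glucose-deprived (GD) cells went without glucose for 36 h. The other 2 groups were deprived for 36 h and treated with empagliflozin, an inhibitor of the renal sodium-glucose cotransporter SGLT2, at 100 or 200 µM. All groups are of the same line, so the spread between libraries is that of 1 cell line. No label says whether libraries within a group came from separate cultures, which serum the deprived cells had, or which solvent carried the drug. The p-values therefore may measure technical spread, glucose cannot be told apart from such other differences in medium, and the drug cannot be told apart from its solvent.

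Heat shock proteins keep other proteins folded. Proteins of the HSP70 family bind exposed stretches of unfolded chains in a cycle driven by ATP; J-domain proteins bring clients to them, and HSP110 and BAG proteins release the spent nucleotide. HSP90 acts later, on kinases, receptors and other nearly folded clients, and small heat shock proteins hold unfolding proteins without ATP. In muscle, BAG3 joins HSP70 to small heat shock proteins and helps to clear damaged filament proteins. Many of these genes are induced by the heat shock factor HSF1, which binds heat shock elements made of inverted GAA units.

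Promoter windows show where such elements lie in these genes. RefSeq windows of the GRCr8 build, from 250 bases before to 50 bases after the annotated start, were at hand for 7 of the 10 genes; Hsp90aa1, Dnajb4 and Cryab had none. An element of 3 units (GAA, any 2 bases, TTC, any 2 bases and GAA, or its reverse complement, so that both strands are covered, with overlaps counted) was present in 2 of the 7 windows, those of Hspa8 and Hsph1, against 0.798% of all 33469 windows. The shorter form with 2 facing units (GAANNTTC or TTCNNGAA, which also lies within every 3-unit element) was in 6 of the 7, against 15.9% of all windows, and Hsp90ab1 was the window without it. A match describes the letters only. The 4 windows below are shown because they belong to genes that later part ways: Hspa8 rose on deprivation, Hspb1 and Bag3 fell in TPM as deposited, and Hsph1 passed no test there. They are written 5′ to 3′ along the gene, with matches to either form in capitals.
Hspa8, GRCr8 chr8:50080264-50080563, plus strand: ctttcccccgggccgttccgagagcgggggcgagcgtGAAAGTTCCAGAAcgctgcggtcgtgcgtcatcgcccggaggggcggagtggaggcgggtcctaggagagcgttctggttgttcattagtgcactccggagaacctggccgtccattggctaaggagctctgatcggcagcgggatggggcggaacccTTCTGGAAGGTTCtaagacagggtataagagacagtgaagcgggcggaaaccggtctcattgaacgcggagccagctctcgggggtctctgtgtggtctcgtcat
Hsph1, GRCr8 chr12:10427118-10427417, plus strand: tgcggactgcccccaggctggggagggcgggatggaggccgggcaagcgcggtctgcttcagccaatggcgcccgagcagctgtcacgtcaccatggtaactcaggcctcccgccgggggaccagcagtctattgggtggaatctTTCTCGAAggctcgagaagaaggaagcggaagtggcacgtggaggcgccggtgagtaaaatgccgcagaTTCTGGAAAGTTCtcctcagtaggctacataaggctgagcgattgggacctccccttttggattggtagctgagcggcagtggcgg
Bag3, GRCr8 chr1:192533210-192533509, plus strand: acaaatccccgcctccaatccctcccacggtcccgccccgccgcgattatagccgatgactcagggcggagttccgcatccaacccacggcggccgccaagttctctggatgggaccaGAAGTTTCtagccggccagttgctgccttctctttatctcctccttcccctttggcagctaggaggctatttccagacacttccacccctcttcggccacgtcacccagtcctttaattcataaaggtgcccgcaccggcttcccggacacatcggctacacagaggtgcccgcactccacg
Hspb1, GRCr8 chr12:26432252-26432551, minus strand: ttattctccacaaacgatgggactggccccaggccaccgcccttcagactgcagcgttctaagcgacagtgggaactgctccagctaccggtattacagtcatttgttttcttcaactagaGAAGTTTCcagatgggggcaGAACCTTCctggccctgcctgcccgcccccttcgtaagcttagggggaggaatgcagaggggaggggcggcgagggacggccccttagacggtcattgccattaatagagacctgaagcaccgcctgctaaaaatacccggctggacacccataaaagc
In Hspa8 the 3-unit elements began 213 and 55 bases before the start, as GAAAGTTCCAGAA and TTCTGGAAGGTTC. In Hsph1 the 3-unit element TTCTGGAAAGTTC began 36 bases before the start and a 2-unit match 105 bases before it. Bag3 and Hspb1 held 2-unit matches of the same letters, GAAGTTTC, beginning 132 and 129 bases before the start, and Hspb1 had another, GAACCTTC, at 109 bases.

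**Figure D1:**
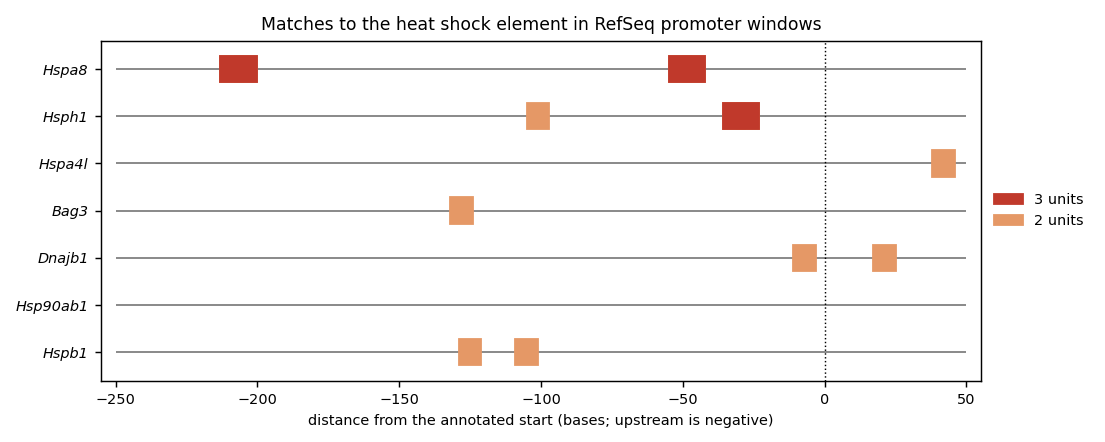
Positions of heat shock element matches in the promoter windows of 7 genes, in bases from the annotated start (dotted line, upstream negative); red marks 3 units and orange 2 units. Hspa8 and Hsph1 have 3-unit matches, and Hsp90ab1 has no match.

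Values are transcripts per 1000000 (TPM), which are per transcript length, so that levels of different genes can be compared. TPM keep no read numbers and the depth is unknown. Library totals were 946400.5 to 981389.8 TPM. Ribosomal protein genes took 17.2 to 17.7% of TPM in control and 31.6 to 36.8% in deprived libraries. The median log2 difference of all genes tested was -0.65 on deprivation, and -0.31 with ribosomal protein and ferritin genes left out of a common total. It was 0.02 when the 100 µM group was compared with GD, 0.14 for the 200 µM group and 0.12 between the doses. Results are therefore given for TPM as deposited and also after median-of-ratios scaling, which sets the typical gene to no change. GD replicate 3 had the fewest genes at 1 TPM of all libraries (10551) and the highest ferritin share (5.25%), and counts without it are given below. Of 11 cardiac muscle markers only Tnnt2 and Gata4 passed the filter, and Myl7 and Ryr2 were listed at 0 in all 12 libraries, although the labels call the cells myocardial. Of 6 skeletal myoblast markers, Des was at 93.6 ± 2.00, Myod1 at 58.8 ± 4.70, Myog at 20.5 ± 1.38 and Chrna1 at 0.97 ± 0.33 TPM in control (SD, n = 3), and Myf5 and Pax7 were at 0 there. Endothelial markers summed to at most 0.09 TPM and leukocyte markers to at most 2.2 TPM in any library.

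Log2 differences are of mean log2(TPM + 1), which understates changes of low genes, and p-values come from limma, adjusted over the whole set of genes tested. Deprivation split the 10 genes. Hspa8, Hspa4l, Hsp90aa1, Hsp90ab1 and Dnajb1 rose, Bag3, Hspb1, Cryab and Dnajb4 fell, and Hsph1 was not called. A rise was thus called for 5 of 10, against 14% of all genes, and a fall for 4 of 10, against 67.6%, or 9 of 10 in either direction, against 81.5%. The median log2 difference of the 10 genes was 0.13. In 9 of 10 genes the GD and control libraries did not overlap, which held for 82.4% of all genes. After median-of-ratios scaling 7 genes were called higher (38.5% of all genes were) and 2 lower (38.5%), or 9 in either direction (77%), with a median of 0.90: Bag3 and Hsph1 became higher, and Hspb1 lost its call. Under 100 µM empagliflozin 6 of the 10 were lower than in GD and 0 higher, against 5.46% of all genes lower and 7.51% higher. Under 200 µM 6 were lower and 0 higher, against 11.4% and 32%, or 43.4% in either direction. With median-of-ratios scaling the count was 8 lower and 0 higher at 100 µM (10.9% and 7.77% of all genes), and 7 lower and 0 higher at 200 µM (24.4% and 22.4%, or 46.8% in either direction). The drug comparisons share the GD libraries with each other and with the first comparison.

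**Figure D2:**
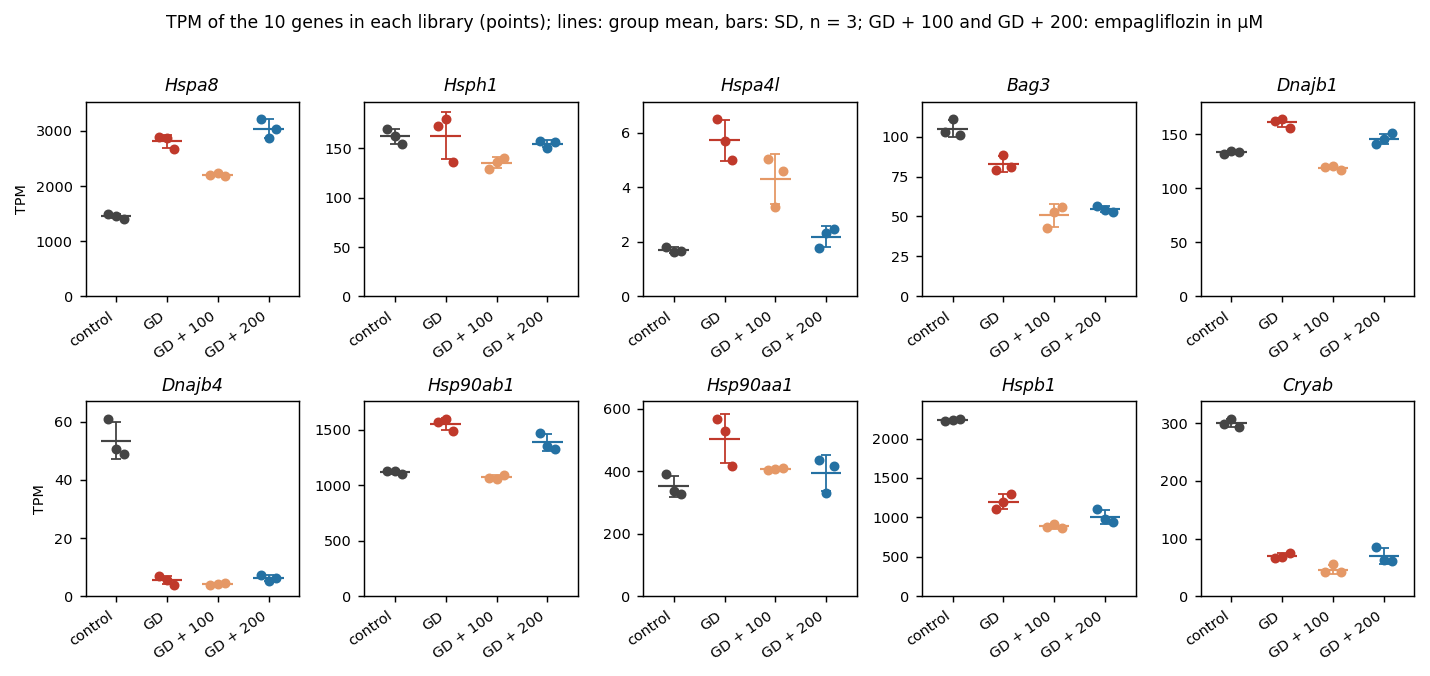
TPM of the 10 genes in each library, in panels with axes from 0; points are libraries, horizontal lines group means and bars the SD (n = 3). Hspa8 is lowest in control (1408 to 1486 TPM), while Hspb1, Cryab and Dnajb4 are highest there.

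HSP70 proper was represented among the 10 by Hspa8, which encodes the constitutive HSC70. Its level was 1486, 1467 and 1408 TPM in the control libraries, 2887, 2863 and 2677 in GD, then 2196, 2239 and 2183 with 100 µM, and 3211, 2879 and 3039.7 with 200 µM. Control was lowest and 100 µM stood apart between control and GD, while GD and 200 µM overlapped. The log2 difference was 0.95 for GD against control (SE 0.05, adjusted p = 1.78e-09), or 1.72 after median-of-ratios scaling. At 100 µM Hspa8 fell by 0.35 against GD (SE 0.05, adjusted p = 0.00112). At 200 µM the difference from GD was 0.11 (95% interval 0.00 to 0.22, adjusted p = 0.0848), and between the doses it was 0.46 (adjusted p = 2.57e-05). Without replicate 2 of the 200 µM group, Hspa8 was called higher than in GD (0.15, adjusted p = 0.0356). The stress-inducible HSP70 genes were sparse. Hspa1b went from 10.4 ± 0.91 TPM in control to 5.92 ± 1.13 in GD (log2 difference -0.73, adjusted p = 0.000221), or -0.05 after that scaling with adjusted p = 0.702. Hspa1a, a near-identical copy with which its reads may be split, was at 1.65 ± 0.42 and 2.16 ± 1.12 TPM (adjusted p = 0.353), and passed after that scaling (0.69, adjusted p = 0.0203).

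The HSP110 genes among the 10, nucleotide exchangers of HSP70, did not move as a pair in TPM as deposited. After median-of-ratios scaling both were called higher on deprivation and lower at 200 µM against GD, with Hspa4l at 1.83 and -1.25. Hspa4l was at 1.82, 1.63 and 1.66 TPM in control, 6.50, 5.69 and 4.99 in GD, then 5.05, 3.28 and 4.61 with 100 µM, and 1.76, 2.34 and 2.48 with 200 µM. All GD libraries were above all control libraries, and the 200 µM libraries were below all GD and 100 µM libraries. The 200 µM libraries were partly among the control values as deposited, but above them after median-of-ratios scaling (1.80 to 2.65 against 1.13 to 1.23). It had the lowest control level and the largest log2 rise on deprivation of the 10 (1.31, SE 0.15, adjusted p = 1.93e-06). It fell by 1.08 at 200 µM against GD (SE 0.15, adjusted p = 6.97e-05) and was 0.35 lower at 100 µM without passing (adjusted p = 0.139). The doses differed by -0.73 (SE 0.15, adjusted p = 0.00199), the sole fall among the 10 between the doses. Hsph1 was at 169, 163 and 154 TPM in control and at 173, 179 and 136 in GD, where replicate 3 was low. It was at 129, 136 and 140.3 TPM at 100 µM and at 157, 151 and 157 at 200 µM. Its difference on deprivation was 0.00 as deposited (95% interval -0.19 to 0.19, adjusted p = 0.975) and 0.77 after median-of-ratios scaling (adjusted p = 6.19e-08). Against GD it was -0.26 at 100 µM (adjusted p = 0.0754) and -0.06 at 200 µM (adjusted p = 0.602). Both passed after that scaling (-0.29 and -0.26) and without GD replicate 3 (-0.38 and -0.19).

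Bag3, the BAG cochaperone that couples HSP70 to small heat shock proteins, was lower in each drug group than in GD. The values were 103, 111 and 101 TPM in control, 79.1, 88.6 and 81.1 in GD, then 42.8, 52.9 and 56.2 with 100 µM, and 56.5, 54.0 and 53.1 with 200 µM. No GD library overlapped control or either dose, while the doses overlapped each other. Bag3 fell by 0.34 on deprivation (SE 0.09, adjusted p = 0.0038), but this turned to a rise of 0.43 after median-of-ratios scaling (adjusted p = 0.000539). Against GD it fell by 0.71 at 100 µM (SE 0.09, adjusted p = 0.000567) and by 0.60 at 200 µM (SE 0.09, adjusted p = 0.00018). It fell after that scaling too (by 0.75 and 0.79), and between the doses it was 0.11 apart (95% interval -0.08 to 0.31, adjusted p = 0.363).

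The J-domain genes moved in opposite directions on deprivation. Dnajb1, the classical HSP40 that stimulates HSP70, was at 132, 135 and 133 TPM in control, 163, 164 and 156 in GD, then 119.7, 121 and 117 with 100 µM, and 141, 146 and 151 with 200 µM. In TPM as deposited the 4 groups did not overlap, in the order 100 µM, control, 200 µM and GD from low to high. After median-of-ratios scaling control was lowest (89.5 to 94.1) and the doses overlapped (132 to 146 at 100 µM and 145 to 161 at 200 µM). It rose by 0.27 on deprivation (SE 0.05, adjusted p = 0.000184), or 1.04 after median-of-ratios scaling, fell by 0.43 at 100 µM (adjusted p = 0.000244) and by 0.14 at 200 µM (adjusted p = 0.0325). Dnajb4, a close relative of Dnajb1, was at 60.9, 50.6 and 49.0 TPM in control, 6.84, 5.69 and 3.97 in GD, then 3.87, 4.26 and 4.44 with 100 µM, and 7.45, 5.32 and 6.09 with 200 µM. Every deprived library was far below control, and GD overlapped both doses. The difference of -3.09 on deprivation (SE 0.16, adjusted p = 1.39e-09), or -2.36 after that scaling, was the steepest fall among the 10. Neither dose passed against GD (adjusted p = 0.251 and 0.394), while the doses differed by 0.48 (adjusted p = 0.0345). That dose difference was lost after median-of-ratios scaling (0.35, adjusted p = 0.051) and without any single library of the 2 groups other than replicate 2 of 200 µM, with adjusted p up to 0.143. Within a library the ratio of Dnajb1 to Dnajb4, which a single factor per library does not alter, was 2.17 to 2.72 in control and 19.0 to 39.4 in the 9 deprived libraries.

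The cytosolic HSP90 genes both rose on deprivation. Against GD the beta form fell at both doses, and the alpha form passed at 200 µM but not at 100 µM in TPM as deposited. Hsp90ab1, the constitutive beta form, was at 1132, 1133 and 1103 TPM in control, 1569, 1599 and 1495 in GD, then 1065, 1055 and 1095 with 100 µM, and 1476, 1359 and 1332 with 200 µM. In TPM as deposited, at 100 µM all libraries were below control, and at 200 µM all lay between control and GD. After median-of-ratios scaling all 100 µM libraries were above control (1181 to 1296 against 767 to 784). It rose by 0.47 on deprivation (SE 0.05, adjusted p = 1.15e-06), or 1.24 after median-of-ratios scaling. It fell by 0.54 at 100 µM (SE 0.05, adjusted p = 8.41e-05) and by 0.16 at 200 µM (SE 0.05, adjusted p = 0.0173). Hsp90aa1, the inducible alpha form, was at 390.1, 336 and 328 TPM in control, 567, 529 and 417 in GD, then 403, 406 and 410.0 with 100 µM, and 435, 329 and 417 with 200 µM. GD was above control in every library. In TPM as deposited GD replicate 3 was close to the drug groups, and 200 µM overlapped control. After median-of-ratios scaling all 200 µM libraries were above control (331 to 445 against 231 to 264). The difference was 0.51 for GD against control (SE 0.12, adjusted p = 0.00127), or 1.28 after that scaling. It was -0.30 at 100 µM (adjusted p = 0.121) and -0.35 at 200 µM (adjusted p = 0.0276).

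Reads of Hsp90aa1 may be split with a copy, a row chosen after its values were seen. LOC100362895, described as alpha-like and annotated in RefSeq GRCr8 as the transcribed pseudogene Hsp90aa1-ps17, was listed at 0 in all 3 control libraries. It was at 179.6, 149 and 198 TPM in GD, then 154, 141 and 129 with 100 µM, and 115, 123 and 123 with 200 µM. The copy was thus highest in GD replicate 3, where Hsp90aa1 was lowest of the GD libraries. Hsp90aa1 summed with its 2 copy rows gave 352 ± 33.8 TPM in control and 681 ± 66.0 in GD (SD, n = 3). With the drug the sums were 548 ± 9.56 TPM at the lower dose and 515 ± 54.2 at the higher. The log2 rise on deprivation was then 0.95 (SE 0.09, adjusted p = 4.11e-07), the difference at 100 µM passed (-0.31, adjusted p = 0.0409), and that at 200 µM was -0.40 (adjusted p = 0.00284). Whether those reads stem from the pseudogene or from Hsp90aa1 was not tested. For Hspa8 the rise was 0.96 with the 4 rows described as similar to it. Nearly all that they add comes from LOC680121, at up to 57.0 TPM, to which RefSeq GRCr8 gives the name of another, protein-coding gene (Haus8l2), so that its being a copy is doubtful.

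The 200 µM falls of Hsp90aa1, Hsp90ab1 and Dnajb1 were small, and their calls as deposited depended on single libraries. Without GD replicate 1, without GD replicate 2, or without replicate 2 of 200 µM, all of them lost the call and 3 of the 6 falls were left, those of Hspa4l, Bag3 and Hspb1. Adjusted p reached 0.125 for Hsp90aa1, 0.0725 for Hsp90ab1 and 0.12 for Dnajb1 over single libraries left out, while the differences stayed negative, at -0.49 to -0.23, -0.21 to -0.13 and -0.17 to -0.12. After median-of-ratios scaling all 3 passed, at -0.55 for Hsp90aa1 (adjusted p = 0.00125), -0.36 for Hsp90ab1 (adjusted p = 0.002) and -0.34 for Dnajb1 (adjusted p = 0.00228). In contrast, the 6 falls at 100 µM (Hsp90ab1, Hspa8, Bag3, Dnajb1, Hspb1 and Cryab) kept adjusted p of at most 0.0376 without any single library, and 9 genes were lower without GD replicate 3.

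**Figure D3:**
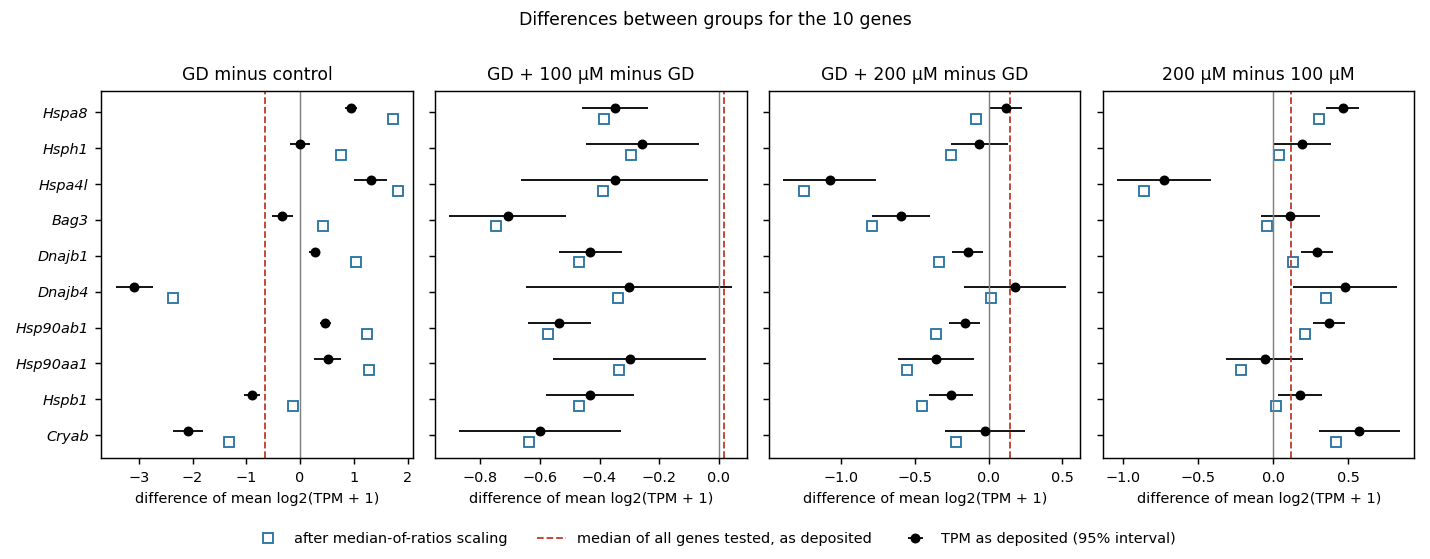
Differences of mean log2(TPM + 1) for the 10 genes in 4 comparisons, as deposited (black, 95% interval) and after median-of-ratios scaling (blue squares); the dashed line is the median of all genes tested. At 100 µM all 10 points lie below 0, and 6 passed.

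Hspb1 and Cryab were lower in every deprived library than in control in TPM as deposited, while after median-of-ratios scaling Hspb1 in GD replicate 3 was above control (1752 against 1502 to 1584). Hspb1, which encodes HSP27, an actin-protecting holdase, was at 2217, 2229.8 and 2247 TPM in control, 1103, 1198 and 1299.9 in GD, then 879.7, 920.2 and 861 with 100 µM, and 1102, 978 and 938 with 200 µM. As deposited, control stood far above the rest, and 100 µM was below all GD and 200 µM libraries. The fall on deprivation was 0.90 (SE 0.07, adjusted p = 4.77e-08), but -0.12 with adjusted p = 0.339 after median-of-ratios scaling, near the typical gene. Against GD Hspb1 fell by 0.43 at 100 µM (SE 0.07, adjusted p = 0.00171) and by 0.25 at 200 µM (SE 0.07, adjusted p = 0.00878), and by 0.47 and 0.45 after that scaling.

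Cryab, the gene of alpha-B crystallin, a small heat shock protein that guards desmin filaments, was at 298, 307 and 294 TPM in control. It was at 66.8, 68.1 and 74.7 TPM in GD, then 41.8, 55.2 and 41.5 with 100 µM, and 84.9, 62.5 and 61.0 with 200 µM. The 100 µM libraries were below all others, and 200 µM overlapped GD. Cryab fell by 2.09 on deprivation (SE 0.13, adjusted p = 5.3e-09), or by 1.32 after median-of-ratios scaling. It fell by 0.60 at 100 µM against GD (SE 0.13, adjusted p = 0.00811), was -0.02 at 200 µM (95% interval -0.30 to 0.25, adjusted p = 0.897), and was 0.58 higher at 200 than at 100 µM (SE 0.13, adjusted p = 0.00355). In RefSeq GRCr8 Cryab overlaps its neighbour Hspb2, another small heat shock protein gene, and the strand setting of the counting is not given in the sources used here, so reads of the pair may not be fully separated. Hspb2 went from 16.4 ± 1.13 TPM in control to 2.89 ± 1.07 in GD (log2 difference -2.20, SE 0.30, adjusted p = 1.3e-05).

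All 3 of the other small heat shock protein genes that passed the filter, Hspb2, Hspb6 and Hspb7, fell on deprivation, where 67.6% of all genes fell. Their median was -2.72, against -0.65 for all genes. All 3 were also lower after median-of-ratios scaling (38.5% of all genes were). Hspb7, a muscle member of the family, went from 97.9 ± 2.81 to 3.19 ± 1.06 TPM (-4.59, SE 0.16, adjusted p = 3.94e-11), or -3.88 after median-of-ratios scaling. It was higher at 200 µM than in GD (5.19 ± 0.32 TPM; 0.59, adjusted p = 0.00784). Hspb8, the usual partner of BAG3, was at most 0.04 TPM in group means and too low to be tested. Markers of muscle were lower in the same libraries. The 6 skeletal myoblast markers, of which Des, Myod1 and Myog made up nearly the whole sum, came to 169 to 179 TPM in control, 26.6 to 29.3 in GD, then 19.8 to 24.9 with 100 µM and 26.3 to 35.7 with 200 µM, with Pax7 at 0 throughout and Myf5 at 0 in all but 1 library. Of them Myod1, Myog and Des were tested, and all 3 fell on deprivation, as did 67.6% of all genes. The 11 cardiac markers summed to 138 to 161 TPM in control and 23.1 to 29.1 in GD. Nearly all of this was Tnnt2, at 142 ± 11.8 and 23.1 ± 2.78 TPM. The 3 fibroblast markers in the table summed to 8328 to 9453 TPM in control and 414 to 756 in GD. That last sum is nearly all Col1a1, since Pdgfra was at 0.94 ± 0.10 TPM and Dcn at 0.067 ± 0.076 TPM in control. The part of these markers in the small heat shock protein values was not tested, and in bulk RNA fewer cells of a kind and less RNA per cell cannot be told apart.

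In TPM as deposited, the makeup of the 10 genes differed between groups more than their summed level did. They summed to 5818 to 5990 TPM in control, 6346 to 6700 in GD, then 4887 to 4993 with 100 µM and 5966 to 6674 with 200 µM, so that 100 µM stood below the other groups. Median-of-ratios scaling divides control values by 1.42 to 1.48 and 100 µM values by 0.82 to 0.89. After it the 100 µM sums lay above control, so the order of the sums depends on the scaling. Shares of the sum do not change with that scaling. Hspb1 held 37.7% ± 0.81 of that sum in control and 18.3% ± 1.96 in GD, while Hspa8 went from 24.6% ± 0.32 to 42.8% ± 0.72 (SD, n = 3). Cryab went from 5.07% ± 0.10 to 1.07% ± 0.09. At 200 µM Hspa8 reached 48.6% ± 0.69 and Hspb1 16.1% ± 0.70. The ratio of Hspa8 to Hspb1 within a library was 0.63 to 0.67 in control, 2.06 to 2.62 in GD, 2.43 to 2.53 with 100 µM and 2.91 to 3.24 with 200 µM. Every 200 µM library thus had a higher ratio than every other library, and GD and 100 µM overlapped. Bag3 relative to Hspa8 went down in steps, from 0.069 to 0.076 in control to 0.027 to 0.031 in GD, then 0.019 to 0.026 with 100 µM and 0.017 to 0.019 with 200 µM, with no overlap between groups. The ratio of Hsp90ab1 to Hsp90aa1 showed no such order, at 2.90 to 3.37 in control, 2.77 to 3.58 in GD, then 2.60 to 2.67 with 100 µM and 3.20 to 4.13 with 200 µM. That holds for the Hsp90aa1 row alone. Its copy row LOC100362895, at 0 TPM in control and 149 to 198 in GD, was left out, and adding it would lower the ratio in deprived libraries only. These ratios do not change with a single factor per library, though quantile normalization can alter them, and with 3 libraries a group they are given as a description.

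**Figure D4:**
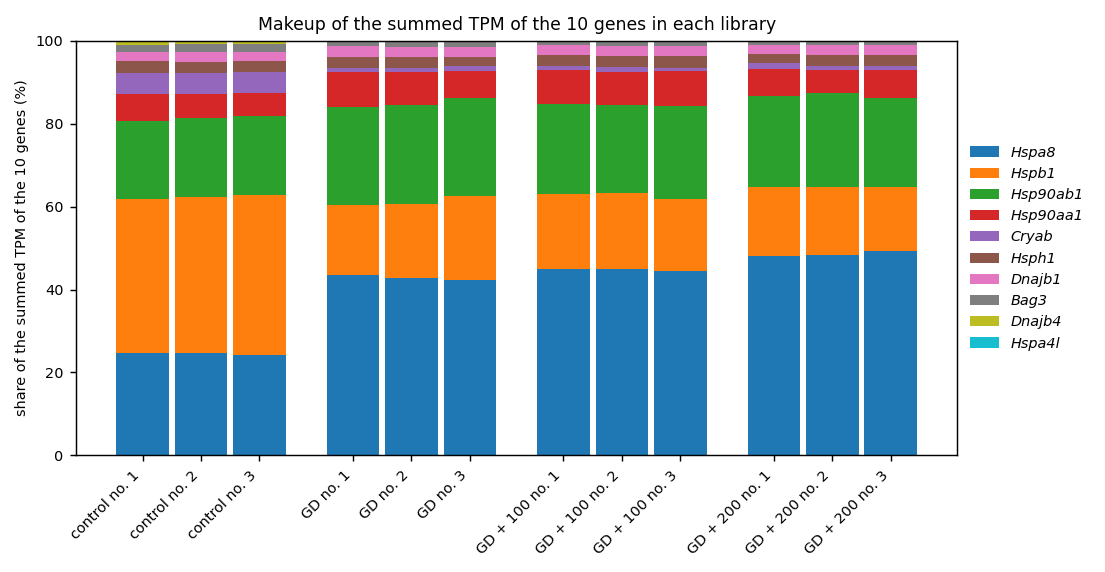
Share of each of the 10 genes in their summed TPM, in percent, for each of the 12 libraries. The Hspb1 share is 37.0 to 38.6% in control and 15.2 to 20.5% in deprived libraries, and the Hspa8 share is 24.2 to 24.8% in control and at least 42.2% in deprived libraries.

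Over the 4 comparisons Hsp90ab1 and Dnajb1 had the same calls in TPM as deposited, as did Bag3 and Hspb1. After median-of-ratios scaling Hsp90ab1 and Dnajb1 differed in call between the doses, and Bag3 and Hspb1 on deprivation. Between the doses Hspa8, Hsp90ab1, Dnajb1, Dnajb4 and Cryab were higher at 200 than at 100 µM and Hspa4l was lower. That is 5 higher of 10, against 25.7% of all genes, and 1 lower, against 8.06%, with a median of 0.24. After median-of-ratios scaling 3 were higher (18.7% of all genes were), Hspa8, Hsp90ab1 and Cryab, and 1 lower (18.4%), or 4 in either direction (37.1%). In 7 of 10 genes the 100 µM and GD libraries did not overlap (26.7% of all genes), in 5 of 10 the 200 µM and GD libraries (50%), and in 8 of 10 the 2 doses (49.7%). The gene outside each of the 10 whose log2 values were most like it over the 12 libraries was Igbp1 for Hspa8 (Pearson r 0.994), Vps35 for Hsp90aa1 (0.941), Pink1 for Hsp90ab1 (0.949) and Plxdc1 for Hspa4l (0.978). It was Ttc3 for Hsph1 (0.960), Rnf10 for Bag3 (0.976) and Zfp496 for Dnajb1 (0.954). For the genes that fell most it was Rrm1 for Dnajb4 (0.998), Trim46 for Hspb1 (0.991) and Arhgef25 for Cryab (0.994). The 12 libraries come from 4 conditions, which the libraries of a group share, so these values are a description only.

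Beyond the 10, 73 other chaperone genes were listed in 9 groups by role, and 66 of them were tested. On deprivation 24 rose and 28 fell, with a median of -0.04, where 14% of all genes rose and 67.6% fell. With median-of-ratios scaling 46 rose and 11 fell, with a median of 0.70, where 38.5% of all genes went each way. At 100 µM against GD 5 were higher and 11 lower (all genes 7.51% and 5.46%), at 200 µM 11 and 12 (32% and 11.4%), and between the doses 13 and 5 (25.7% and 8.06%). After that scaling the counts were 2 and 18 (7.77% and 10.9%), 5 and 29 (22.4% and 24.4%), and 7 and 19 (18.7% and 18.4%).

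The heat shock factor genes did not move together in TPM as deposited. For the counts on deprivation below, 14% of all genes rose and 67.6% fell, or 38.5% each way after median-of-ratios scaling. The transcript of the master regulator Hsf1 was at 32.9 ± 2.57 TPM in control, 33.1 ± 3.22 in GD, then 36.1 ± 1.57 with 100 µM and 34.8 ± 3.08 with 200 µM. Its difference on deprivation was 0.01 (adjusted p = 0.944), or 0.76 after median-of-ratios scaling (adjusted p = 6.24e-06), and the drug comparisons did not pass under either scaling. Of the 3 heat shock factor genes Hsf4 rose and Hsf2 fell as deposited, and all 3 were higher after that scaling. Hsbp1, listed with them, with a product that binds and restrains HSF1, fell from 299 ± 7.64 to 190.3 ± 11.6 TPM (-0.65, SE 0.06, adjusted p = 2.49e-07), or was at 0.12 after that scaling (adjusted p = 0.0696). Of the other HSP70 and HSP110 genes 1 of 6 rose and 4 fell (2 and 2 after that scaling), with Hspa14, of a ribosome-associated HSP70, at -0.90 (adjusted p = 3.77e-07), or -0.18 after that scaling. Of 10 other J-domain genes 2 rose and 6 fell (7 and 3 after that scaling), with Dnajb5 going from 28.7 ± 0.85 to 7.12 ± 1.02 TPM (-1.88, adjusted p = 4.59e-09), or -1.15 after that scaling. Of 5 other BAG and exchange genes 1 rose and 4 fell (2 and 0 after that scaling). The riser was Bag1, an HSP70 nucleotide exchanger, from 86.8 ± 3.85 to 146 ± 4.74 TPM (0.75, SE 0.06, adjusted p = 5.2e-08), or 1.51 after that scaling, against the fall of Bag3 in TPM as deposited.

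Of 16 cochaperones of HSP90 and HSP70, 8 rose and 6 fell on deprivation, where 14% of all genes rose and 67.6% fell. Median-of-ratios scaling gave 11 and 2, where 38.5% of all genes went each way. Ptges3, which encodes the HSP90 cochaperone p23, rose from 191 ± 8.74 to 368 ± 24.8 TPM (0.94, SE 0.06, adjusted p = 1.13e-08), or by 1.72 after median-of-ratios scaling. It fell at 100 µM to 301 ± 15.9 TPM (-0.29, adjusted p = 0.00868) and at 200 µM to 230.0 ± 4.99 TPM (-0.67, SE 0.06, adjusted p = 3.11e-06), and the doses differed by -0.38 (adjusted p = 0.000435). Stip1, whose product bridges HSP70 and HSP90, was at 288 ± 6.51 TPM in control and 289 ± 17.6 in GD (adjusted p = 0.953), and was called higher after median-of-ratios scaling (0.78). It fell by 0.23 at 200 µM against GD (adjusted p = 0.00991). At 200 µM 3 cochaperones were higher and 6 lower than in GD (32% and 11.4% of all genes). At 100 µM the counts were 2 and 3 (7.51% and 5.46%). After median-of-ratios scaling they were 1 and 6 at 200 µM (22.4% and 24.4%), and 1 and 4 at 100 µM (7.77% and 10.9%).

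The folding chambers rose in part. Of the 8 subunit genes of the chaperonin TRiC, which folds actin and tubulin, 4 rose and 0 fell on deprivation. All 8 were higher after median-of-ratios scaling. Of all genes 14% rose and 67.6% fell on deprivation, or 38.5% each way after that scaling. Cct4 went from 185 ± 10.2 to 282 ± 13.6 TPM (0.61, SE 0.05, adjusted p = 2.36e-07), or 1.38 after that scaling. Against GD it fell by 0.38 at 100 µM (adjusted p = 0.00104) and by 0.33 at 200 µM (adjusted p = 0.000361). Of the 8 TRiC genes, 2 were lower than in GD at 100 µM and 1 at 200 µM (5.46% and 11.4% of all genes), with 0 higher. After that scaling 2 and 7 were lower (10.9% and 24.4%). Of 6 prefoldin genes, whose products feed TRiC, 2 rose and 2 fell on deprivation (6 and 0 after that scaling). Pfdn5 was at 0.66 (adjusted p = 2.25e-07), or 1.43 after that scaling. Of 8 mitochondrial chaperone genes 5 rose and 1 fell on deprivation (7 and 1 after that scaling). The gene that fell was Trap1, the mitochondrial HSP90, from 50.6 ± 0.28 to 17.3 ± 0.85 TPM (-1.50, SE 0.08, adjusted p = 1.52e-09), or -0.75 after that scaling. Hspd1, the gene of HSP60, was at 348 ± 20.1 TPM in control and 325 ± 44.9 in GD (adjusted p = 0.275), and was called higher after that scaling (0.66, adjusted p = 6.63e-07). Among the windows of all the other chaperone genes listed, 5 of 65 held a 3-unit heat shock element (7.7%, against 0.798% of all windows). They were those of Dnaja1, Chordc1, Cct4, Hspd1 and Hspe1. The matches in Hspd1 and Hspe1 are reverse complements of each other, so the same stretch may be counted in both windows. The 2-unit form was in 15 of 65 (23.1%, against 15.9%).

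**Figure D5:**
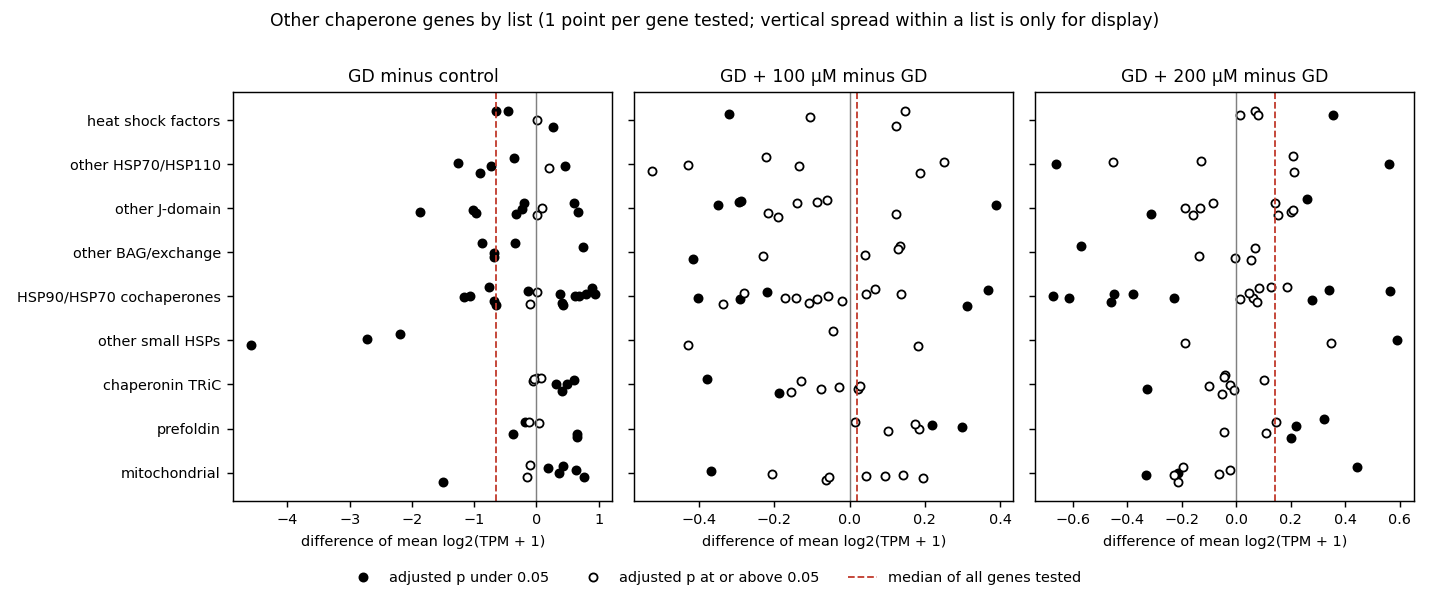
Differences of mean log2(TPM + 1) for 66 other chaperone genes by list in 3 comparisons, 1 point per gene; filled points passed at an adjusted p under 0.05 and the dashed line is the median of all genes tested. On deprivation all 3 other small heat shock genes lie at or below -2.20.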

How the data were processed

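Gene expression was measured by RNA-seq of total RNA in 12 libraries. The deposited table holds TPM made by the authors. The values themselves gave the unit, since columns sum to 946400.5 to 981389.8. HISAT2 and StringTie were used, per the submitters' processing notes. Their versions, the build, the annotation and whether strand was used: not given in the sources used here. Depth is unknown, so counting intervals were not computed, and no count test was possible.

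Those 12314 of 35966 genes that reached 1 TPM in 3 or more libraries entered limma-trend as log2(TPM + 1) (limma 3.58.1, R 4.3.3), 1 mean per group, all 12 libraries in 1 model, two-sided, with p-values of each of 4 comparisons adjusted by Benjamini-Hochberg over every gene tested, at an adjusted p under 0.05. The code was tested on simulated data. Intervals are at 95%. All 10 genes are named; from the other chaperone lists, the member with the smallest p on deprivation, and Hsf1, Hspa1a, Hspa1b, Hspb8, Stip1 and Hspd1. The genes and lists were chosen with earlier results of these data known. Of the 73 other genes listed, 72 were found by symbol. Alternatives are scalings, filters, pseudocounts, limma settings, thresholds and leaving out libraries; the summing of copies was chosen after seeing the data. Genes were matched by symbol to RefSeq GRCr8 promoter windows.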

Additional observations from a re-analysis of the deposited data

How the results depend on the processing

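Among values of the 10 genes under settings that kept all libraries, 495 held direction and call, 15 gained the call, 38 lost it and 12 changed sign; with a library left out these numbers were 208, 6, 16 and 10. A 2-fold threshold ended 23 calls of the 10 genes. The share of all calls that were higher moved with the scaling: 17.1% on deprivation as deposited and 50% after median-of-ratios scaling, 57.9% and 41.7% at 100 µM against GD, 73.7% and 47.8% at 200 µM, and 76.1% and 50.5% between the doses. With that scaling 2 of the 10 were lower on deprivation and 3 higher between the doses; of the other chaperones 46 were higher and 11 lower on deprivation, 2 and 18 at 100 µM, 5 and 29 at 200 µM, and 7 and 19 between the doses. Quantile normalization gave 45 and 13 on deprivation, 25 lower at 200 µM and 15 lower between the doses. A common total without ribosomal protein and ferritin genes gave 40 and 18, 19 and 12. On deprivation Hsph1 turned to 0.766, 0.464 and 0.406 and Bag3 to 0.43, 0.163 and 0.0718 under these 3 scalings. Median-of-ratios scaling turned Hspa8 at 200 µM against GD to -0.0818 and Bag3 between the doses to -0.0432; quantile normalization turned Dnajb4 at 200 µM to -0.0476.

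With array weights 10 of the 10 were lower at 100 µM, where 10 other chaperones were higher and 26 lower and 3679 genes were called; 22 others were lower at 200 µM and 8 between the doses, and Hsph1 on deprivation, Dnajb4 and Cryab at 200 µM turned to 0.0981, -0.0562 and 0.0114. Fitting only the groups compared left 707 genes at 100 µM, with 1 other chaperone higher and 5 lower, and 3 of the 10 lower at 200 µM. An adjusted p under 0.01 gave 675, 1, 5 and 3, and 2609 genes and 3 other chaperones lower between the doses. With no filter 3 others were higher at 100 µM. Requiring a 2-fold change left 4657, 75, 728 and 475 genes in the 4 comparisons; 1 of the 10 higher and 2 lower on deprivation, 0 lower at 100 µM, 1 lower at 200 µM, and 0 higher and 0 lower between the doses; and 0 others higher and 9 lower, 0 and 0, 0 and 0, and 1 and 0. The 2-unit element was in 15.9% of promoter windows. The causes were not tested.

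Leaving out 1 library at a time gave 3 to 4 other chaperones higher and 5 to 20 lower at 100 µM, with 1005 to 2476 genes called; 3 to 7 of the 10 lower and 0 to 1 higher at 200 µM; and 3 to 9 others lower between the doses. Signs changed for Hsph1 on deprivation (-0.0781 to 0.121) and at 200 µM (-0.186 to 0.0131), Dnajb4 (-0.00154 to 0.327) and Cryab (-0.175 to 0.0611) at 200 µM, and Bag3 (-0.000741 to 0.192) and Hsp90aa1 (-0.133 to 0.0676) between the doses. Same-numbered libraries mostly did not deviate together (3 of 18 pairs above r = 0.1, the highest at 0.212). With 3 libraries a group this cannot exclude that the numbers mark shared cultures. A replicate block left 3 other chaperones higher at 100 µM and changed no count of the 10 by over 1.5 times. Depth is unknown and sets a limit that could not be computed for the lowest genes, Hspa4l and Dnajb4.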
